A study of Mus musculus with 6 samples.

Results

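The complement system of the old mouse brain was examined through 9 genes of the 38087 in the deposited gene table, found by their gene symbols: C1qa, C1qb, C1qc, C4b, C3, C3ar1, Itgam, Serping1 and Cd59a. They were compared between 3 wild-type (WT) and 3 Sgo1-/+ mice by RNA-seq of brain RNA, with 1 library per animal. All 6 mice were 24 months old and of the C57BL6 strain, and no allele beyond Sgo1 is stated for either group. Sgo1-/+ mice are haploinsufficient for Shugoshin-1, a protein that guards the cohesion of sister chromatids and centrosomes. Each group had 1 male (WT replicate 1, Sgo1-/+ replicate 2) and 2 females. Values of a gene are given in the order of replicates 1, 2 and 3. The study dissected the cerebrum with cortex and hippocampus and described the olfactory bulb, cerebellum and medulla as removed. All WT libraries came from run 258 and all Sgo1-/+ libraries from run 259, so genotype and run cannot be told apart. The study asked how the brain of this chromosome instability model differs from WT at old age.

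Complement is a cascade of plasma and tissue proteins that tags surfaces for removal. C1q, built from the products of C1qa, C1qb and C1qc, binds a surface and starts the classical route, which cleaves C4 and then C3. C3 fragments stay on the surface, where phagocytes bind them through complement receptor 3, and released C3a signals through the C3a receptor. Serping1 encodes C1 inhibitor, which stops the first proteases, and Cd59a encodes a membrane protein that blocks the final membrane pore. In the brain, microglia are the main source of C1q, astrocytes and oligodendrocytes make C4, and the cascade is known for the removal of synapses in development and in models of neurodegeneration.

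C1qb (chr4:136880129-136886187), C1qc (chr4:136889804-136893065) and C1qa (chr4:136895917-136898803) lie on the minus strand of mm10 in a cluster of 18.7 kb. RefSeq start-site windows of GRCm38.p6, from 250 bases before to 50 after each start, were held for 6 of the 9 genes and not for C1qa, C4b and Serping1. The windows of C1qb, of C1qc and of Itgam are shown because these genes are expressed by microglia and had the smallest within-group spread of the 9 (SD of 0.218, 0.237 and 0.108 on the log2 scale). Capitals mark the core GAGGAA of the binding motif of PU.1, the master transcription factor of microglia, or TTCCTC, the same letters on the other strand. The C1qb window covers chr4:136886151-136886450 and the C1qc window chr4:136892865-136893164, both on the minus strand, and the Itgam window chr7:128062390-128062689 on the plus strand.
C1qb: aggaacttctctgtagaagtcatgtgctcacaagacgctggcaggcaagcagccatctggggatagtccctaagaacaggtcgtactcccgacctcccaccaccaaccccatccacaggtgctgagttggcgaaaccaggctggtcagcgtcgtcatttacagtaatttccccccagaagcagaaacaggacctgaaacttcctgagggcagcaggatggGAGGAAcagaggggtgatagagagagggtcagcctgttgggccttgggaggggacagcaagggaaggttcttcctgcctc
C1qc: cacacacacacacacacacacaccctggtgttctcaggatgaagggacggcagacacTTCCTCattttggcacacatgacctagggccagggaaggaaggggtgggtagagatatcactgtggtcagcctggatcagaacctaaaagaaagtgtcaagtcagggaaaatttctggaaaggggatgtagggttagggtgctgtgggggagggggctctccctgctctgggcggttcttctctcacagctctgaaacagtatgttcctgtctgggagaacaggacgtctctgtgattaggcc
Itgam: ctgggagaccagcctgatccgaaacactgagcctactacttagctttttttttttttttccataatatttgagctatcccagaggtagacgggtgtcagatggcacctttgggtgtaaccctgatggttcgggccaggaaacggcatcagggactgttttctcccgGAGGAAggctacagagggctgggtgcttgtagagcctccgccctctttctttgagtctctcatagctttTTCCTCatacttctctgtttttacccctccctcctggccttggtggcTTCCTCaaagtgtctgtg
The core began 30 bases before the RefSeq start site in C1qb and 193 bases before it, on the other strand, in C1qc. The C1qc gene as placed above begins at 136893065, upstream of its RefSeq start, so this distance depends on the start used. Itgam held it 3 times. Over the 6 windows, GAGGAA was found on either strand in 4 (C1qb, C1qc, Itgam and Cd59a), against 28.3% of 32851 promoter windows of the same length. The STAT site TTCNNNGAA was in 0 of 6 windows and in 8.3% of all. The interferon-stimulated response element was in 1 window, that of Cd59a, and in 3.44% of all. No match of one motif overlapped a match of another. These matches describe letters only.

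Library totals were 11123917 to 12505561 estimated counts. Sgo1 itself, listed under its older symbol Sgol1, had 0, 7 and 0 estimated counts in WT and 4, 2 and 0 in Sgo1-/+. It did not pass the filter on low counts, and these values do not check the genotype labels. Neuronal Snap25 had 32024 to 46025 normalized counts (estimated counts scaled to a common library size) in every library. WT replicate 1 stood apart, with a mean correlation of 0.935 with the other libraries against 0.967 to 0.970 for the rest. Its 7 cerebellar markers (Gabra6, Cbln3 and Car8 first) summed to 22476 normalized counts against 1802 to 2551 elsewhere. Calb1, with 1485 to 2145, made up most of the sum elsewhere, whereas Gabra6 had 2168 in WT replicate 1 against 0 to 72.6. The 7 brain stem markers (Slc6a5 and Gata3 among them) summed to 3616 in WT replicate 1 against 17.5 to 53.4. Olfactory bulb markers (Doc2g, Tbx21 and Cdhr1 first) summed to 2478 to 3277 in WT and 371 to 1702 in Sgo1-/+, with no overlap. Of the 7 markers, only 2 (Calb2 and Shisa8) did not overlap singly. In WT replicate 1, Calb2 made up 2346 of the sum of 2798. Doc2g, Tbx21 and Cdhr1 had 28.9, 5.54 and 44.3 there, below the 179, 19.9 and 432 of Sgo1-/+ replicate 1. Choroid plexus markers (Ttr, Kl and Folr1 first) summed to 21295, 7438 and 549 in WT and 1127, 292 and 23719 in Sgo1-/+. Because WT replicate 1 stood apart, values without it are given beside many of the results.

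All 9 genes passed the filter, and none differed between the genotypes after adjustment over all genes. In the edgeR quasi-likelihood fit over 16337 genes, 0 of 9 had an adjusted p-value under 0.05, as did 0.0% of all genes tested. At an unadjusted p under 0.05, 1 of 9 was called, C4b, higher in Sgo1-/+, against 2.04% of all genes in either direction, 0.808% higher and 1.23% lower. The adjusted threshold was passed over all genes by 3 with DESeq2 and by 2 with edgeR's likelihood ratio test, none of them among the 9. The WT and Sgo1-/+ values overlapped for all 9, whereas they did not for 6.85% of all genes (3.28% higher and 3.57% lower in Sgo1-/+). The log2 fold change was above 0 for 7 of the 9, against 49.8% of all genes, with a median of 0.11 beside -0.0007 for all genes. Without WT replicate 1 it was above 0 for 8 of 9 (51.3% of all genes), and without WT replicate 3 or without Sgo1-/+ replicate 3 for 5 of 9 (49.3% and 49.8%). The plot of normalized counts by library shows all 9.

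**Figure D1:**
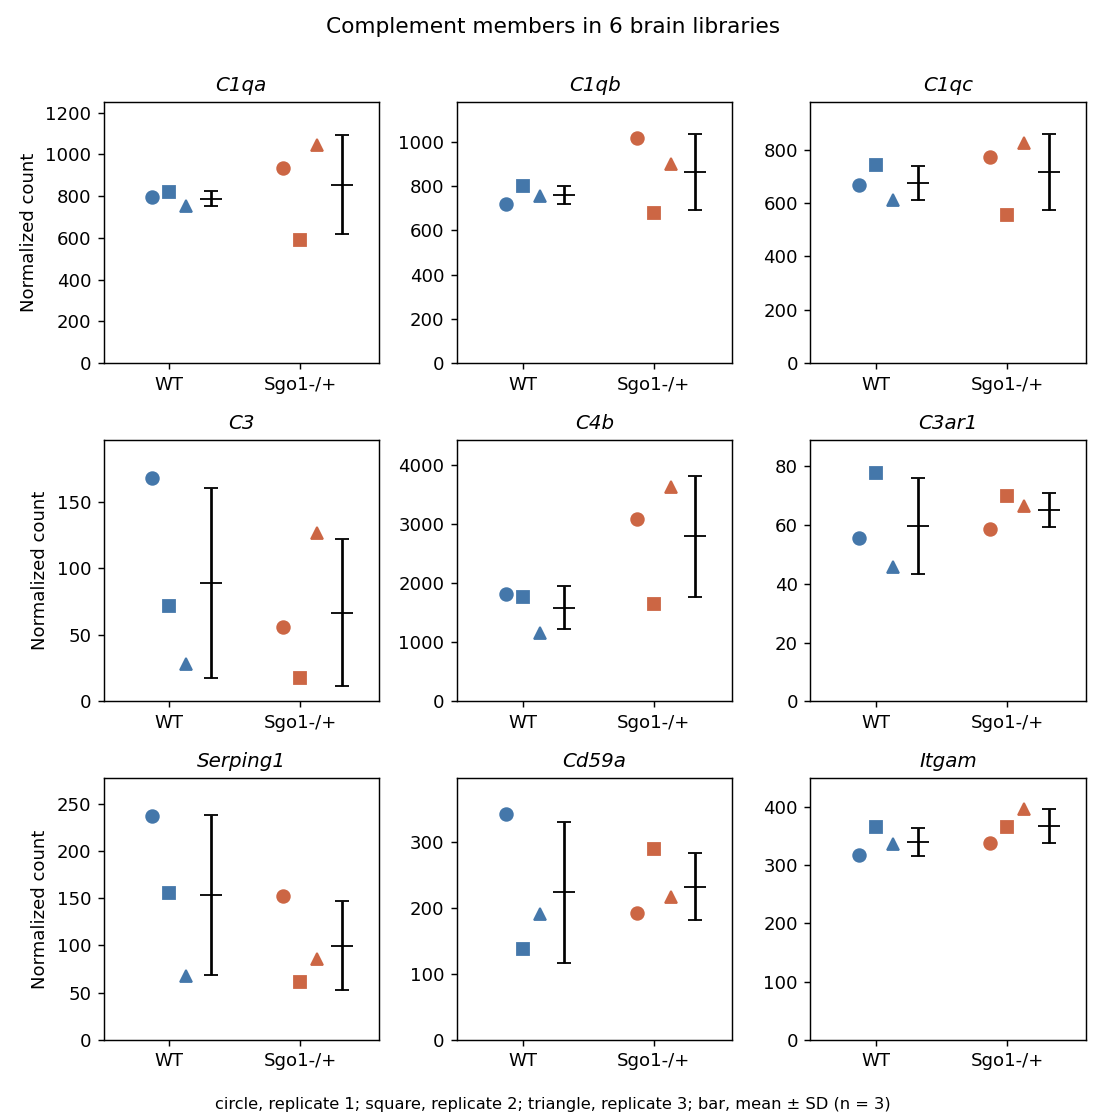
Normalized counts (vertical axes, from 0) of the 9 complement genes in 3 WT (blue) and 3 Sgo1-/+ (orange) libraries, with the mean ± SD beside the points (n = 3). The groups overlap in every panel, and C4b has its 2 highest values, 3091 and 3637, in Sgo1-/+.

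The genes of C1q gave slightly higher means in Sgo1-/+ with wider spread, and none of the 3 was called. C1qa had 796, 819 and 751 normalized counts in WT and 935, 588 and 1043 in Sgo1-/+. The lowest and the 2 highest values were thus all from Sgo1-/+ animals. The means were 789 ± 34.9 in WT and 855 ± 238 in Sgo1-/+ (SD, n = 3 each), and the log2 fold change was 0.12 ± 0.209 (SE, unadjusted p = 0.593 and adjusted p = 0.9999, edgeR).

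C1qb had 719, 800 and 756 normalized counts in WT and 1016, 679 and 900 in Sgo1-/+, with a log2 fold change of 0.19 ± 0.160 (SE, unadjusted p = 0.273, edgeR). C1qc had 668, 740 and 613 in WT and 772, 554 and 823 in Sgo1-/+, with a log2 fold change of 0.09 ± 0.170 (SE, unadjusted p = 0.618, edgeR). Sgo1-/+ replicate 2, the male, was the lowest of the 6 libraries for all 3 genes, and the other Sgo1-/+ libraries were the 2 highest. Without WT replicate 1 the log2 fold changes of C1qa, C1qb and C1qc were 0.12, 0.15 and 0.08. The fold change of C1qa went to -0.05 and that of C1qc to -0.02 without Sgo1-/+ replicate 3. Without Sgo1-/+ replicate 2, C1qa (0.32) and C1qb (0.33) joined C4b at an unadjusted p under 0.05, giving 3 of 9 against 0.707% of all genes called higher in that fit.

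The proportions of the chains were not distinguished between the genotypes. Per length (counts per kilobase of exon), C1qa made up 42.0% ± 1.00 of the summed level in WT and 41.0% ± 3.13 in Sgo1-/+ (SD, n = 3 each, exact two-sided permutation p = 0.6). C1qb made up 38.7% ± 1.39 and 40.3% ± 3.11 (exact permutation p = 0.5, n = 3 each). C1qc made up 19.3% ± 0.923 and 18.7% ± 0.782 (exact permutation p = 0.4, n = 3 each). With 3 animals against 3, this test has 20 groupings and cannot give a p below 0.1. The difference in the C1qa share was -1.04 percentage points, and -0.467 without WT replicate 1, and that in the C1qb share was 1.6 and 0.928.

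Microglial markers were read beside C1q. The 16 markers (Cx3cr1, P2ry12 and Tmem119 first) summed to 5856, 6527 and 7001 normalized counts in WT and to 7566, 7353 and 8356 in Sgo1-/+. These groups did not overlap (exact two-sided permutation p = 0.1, n = 3 each, the smallest possible). All 16 had a log2 fold change above 0, against 49.8% of all genes, with a median of 0.29 and a range of 0.07 to 0.50. Csf1r, the receptor on which microglia depend for survival, and Selplg were both named after their values were seen. They were 2 of 16 at an unadjusted p under 0.05, against 0.808% of all genes called higher. The adjusted threshold was passed by 0 of 16. Without WT replicate 1, 13 of 16 were above 0, against 51.3% of all genes, with a median of 0.18.

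Summed C1q was 2183, 2360 and 2120 normalized counts in WT and 2723, 1821 and 2766 in Sgo1-/+, overlapping (exact permutation p = 0.4, n = 3 each). As a percentage of the summed microglial markers, C1q was 37.3, 36.2 and 30.3 in WT and 36.0, 24.8 and 33.1 in Sgo1-/+. Sgo1-/+ replicate 2 thus had the lowest C1q relative to microglial markers. The means were 34.6% ± 3.76 and 31.3% ± 5.83 (SD, n = 3 each, exact permutation p = 0.5). The difference of -3.28 percentage points became -1.93 when WT replicate 1 was left out and -0.021 when Sgo1-/+ replicate 2 was. In bulk RNA, fewer cells of a type and less RNA per cell cannot be told apart, and the part of microglial content in the C1q values was not tested.

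C4b carried the largest difference among the 9. C4b (chr17:34728380-34743882) encodes C4, whose cleavage makes the enzyme that acts on C3. It had 1824, 1772 and 1165 normalized counts in WT and 3091, 1653 and 3637 in Sgo1-/+. Both Sgo1-/+ females lay above every WT animal, and the Sgo1-/+ male lay below WT replicates 1 and 2. The means were 1587 ± 366 in WT and 2794 ± 1025 in Sgo1-/+ (SD, n = 3 each), a ratio of 1.76. The log2 fold change was 0.82 ± 0.313 (SE, unadjusted p = 0.0356 and adjusted p = 0.9999, edgeR). On the normalized counts alone, the exact two-sided permutation test gave p = 0.3 (n = 3 each).

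The direction of C4b held in all 16 alternative fits, with log2 fold changes of 0.58 to 1.20, but an unadjusted p under 0.05 was kept in 9 of them. Among the 7 edgeR fits that lost it were those without WT replicate 2 (unadjusted p = 0.0593), WT replicate 3 (0.107), Sgo1-/+ replicate 1 (0.0950) or Sgo1-/+ replicate 3 (0.124), with library size alone (0.0553) and with sex as a covariate (0.0572). Without WT replicate 1 the fold change was 0.93 (unadjusted p = 0.0252, edgeR), and C4b was the 1 gene of 9 called beside 1.86% of all genes called higher. The adjusted p-value lay between 0.764 and 1.0 in all fits.

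C4a, the close copy of C4b at chr17:34809092-34823464 known as sex-limited protein, was likewise highest in Sgo1-/+ replicates 3 and 1 and lowest in WT replicate 3, at far lower counts. It had 17.9, 21.9 and 13.4 normalized counts in WT and 37.2, 21.1 and 62.7 in Sgo1-/+, with a log2 fold change of 1.17 ± 0.454 (SE, unadjusted p = 0.0370, edgeR), and 1.18 without WT replicate 1 (unadjusted p = 0.0586, edgeR). C4a counts were 0.983, 1.24 and 1.15% of C4b counts in WT and 1.20, 1.28 and 1.73% in Sgo1-/+ (exact permutation p = 0.2, n = 3 each). Of the 5230 windows of 150 bases in the longest C4b transcript, 432 (8.26%) also occur in a C4a transcript. Reads could thus be split between the genes, and their values may not be independent. C4b and C4a lie 18.93 and 18.85 Mb from Sgo1 on the same chromosome.

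The genes whose pattern over the 6 libraries was most like that of C4b were Cldn11, Fam84b, Mobp, Mal and Prelp. Likeness is the root mean square difference of log2 normalized counts centred on each gene's mean, among 11285 genes with a mean of at least 100, and it was 0.26 for Cldn11 against a spread of 0.56 for C4b itself. Cldn11 and Mobp are oligodendrocyte markers and Mal encodes a myelin protein. The 7 oligodendrocyte markers (Mog and Mbp first) summed to 142976, 54784 and 59345 normalized counts in WT and 79313, 76816 and 135482 in Sgo1-/+. All 7 had a log2 fold change above 0 (49.8% of all genes), and 0 of 7 were at an unadjusted p under 0.05. The highest sum was in WT replicate 1, where C4b had 1824 normalized counts beside 1772 in WT replicate 2. The 8 astrocyte markers (Aqp4, Gfap and Aldh1l1 first) summed to 53804 to 64156 in WT and 53974 to 60504 in Sgo1-/+. Gfap, which rises in reactive astrocytes, had 9929, 6212 and 4003 in WT and 8306, 3034 and 8208 in Sgo1-/+. The part of these cell types in the C4b values was not tested.

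C3 had the widest spread of the 9. C3 (chr17:57203970-57228136, 3.51 Mb from Sgo1) encodes the central component on which all routes converge. It had 168, 71.7 and 28.4 normalized counts in WT and 55.6, 17.7 and 127 in Sgo1-/+. The highest value was 9.45 times the lowest, and both groups held high and low libraries. The means were 89.2 ± 71.2 in WT and 66.7 ± 55.4 in Sgo1-/+ (SD, n = 3 each), and the log2 fold change was -0.41 ± 0.799 (SE, unadjusted p = 0.623, edgeR). The sign turned without WT replicate 1, to 0.42, and in the 4 females alone, to 0.87. The within-group SD of C3 on the log2 scale was 1.29, larger than that of 98.3% of the genes tested.

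The C3 values lay beside the choroid plexus markers. The 2 libraries with the highest marker sums, WT replicate 1 and Sgo1-/+ replicate 3, were the 2 with the most C3, WT replicate 2 was next for both, and Sgo1-/+ replicate 2 was lowest for both. Ttr, the transthyretin gene that defines the choroid plexus, had 20028, 6757 and 349 normalized counts in WT and 815, 114 and 21820 in Sgo1-/+. The genes most like C3 were A2m, Rab37, Epn3, Spp1 and Car14, with a root mean square difference of 0.34 for A2m against a C3 spread of 1.13. The part of choroid plexus, or of the cerebellar and brain stem content of WT replicate 1, in the C3 values was not tested.

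**Figure D2:**
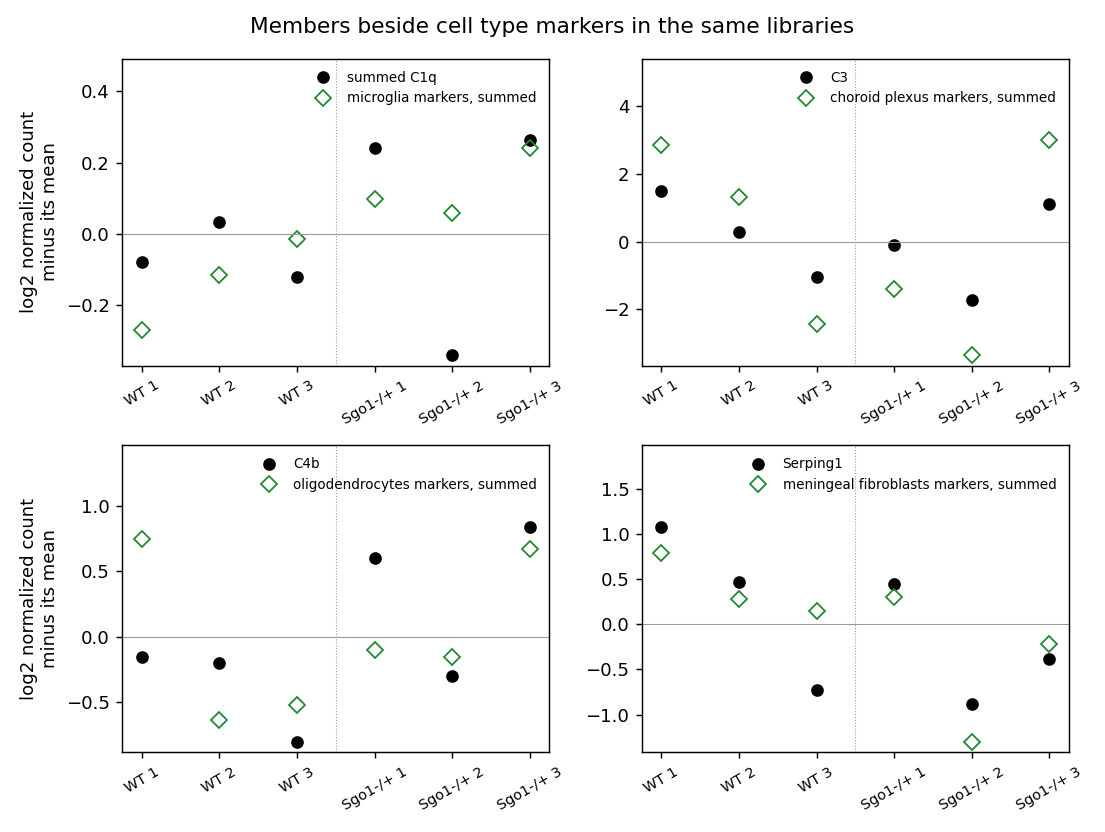
log2 normalized counts minus their mean over 6 libraries (vertical axes) for summed C1q, C3, C4b and Serping1 (black), beside the summed markers of 1 cell type each (green diamonds). WT libraries are left of the dotted line and Sgo1-/+ libraries right of it. C3 and the choroid plexus markers are highest in WT 1 and Sgo1-/+ 3 and lowest in Sgo1-/+ 2.

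Neither receptor gene was called. Itgam (chr7:128062640-128128160) encodes CD11b, which pairs with Itgb2 to form complement receptor 3 on microglia. It had 318, 366 and 336 normalized counts in WT and 339, 367 and 398 in Sgo1-/+, with a log2 fold change of 0.11 ± 0.121 (SE, unadjusted p = 0.384, edgeR), and 0.07 without WT replicate 1. This was the steadiest of the 9, with a within-group SD of 0.108 on the log2 scale, and only 12.1% of tested genes varied less. Exons of Itgam overlap those of Gm49368 on the same strand, so reads of the overlap could be split between them. C3ar1 (chr6:122847138-122856161), the receptor of C3a, had 55.4, 77.6 and 45.6 normalized counts in WT and 58.6, 69.9 and 66.5 in Sgo1-/+. The difference was 0.12 ± 0.261 on the log2 scale (SE, unadjusted p = 0.657, edgeR), 0.07 without WT replicate 1 and -0.04 without WT replicate 3.

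The inhibitor genes followed no common direction. Serping1 (chr2:84765387-84775444) had 238, 155 and 68.0 normalized counts in WT and 153, 60.8 and 85.9 in Sgo1-/+. The highest libraries were WT replicates 1 and 2 and Sgo1-/+ replicate 1, and the ranges overlapped. The log2 fold change was -0.62 ± 0.507 (SE, unadjusted p = 0.262, edgeR), -0.16 without WT replicate 1 and 0.10 in the females alone. The 7 meningeal fibroblast markers (Dcn, Lum and Col1a1 first) summed to 1126, 792 and 723 in WT and 806, 265 and 560 in Sgo1-/+. All 7 had a log2 fold change below 0 (8199 of 16337 genes tested), with a median of -0.62, and 0 of 7 were at an unadjusted p under 0.05. WT replicate 1 was highest and Sgo1-/+ replicate 2 lowest for both, and the part of these cells in the Serping1 values was not tested.

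Cd59a (chr2:104095801-104115354) had 343, 138 and 191 normalized counts in WT and 192, 289 and 216 in Sgo1-/+. The 2 males were the 2 highest. The log2 fold change was 0.06 ± 0.345 (SE, unadjusted p = 0.876, edgeR), 0.50 without WT replicate 1, and below 0 in 4 of 16 alternative fits. Cd59b, its neighbour at chr2:104069849-104091187, had 46.1, 14.3 and 43.1 in WT and 15.9, 38.4 and 32.5 in Sgo1-/+ (log2 fold change -0.24 ± 0.525, SE). The longest Cd59a transcript shares 0 windows of 150 bases with Cd59b.

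**Figure D3:**
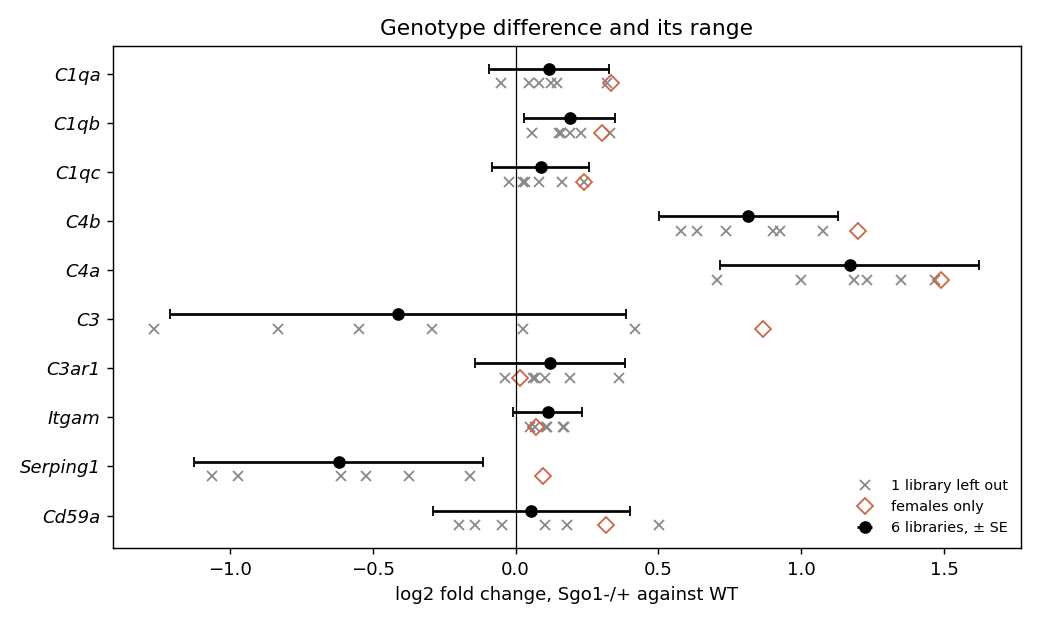
log2 fold change of Sgo1-/+ against WT (horizontal axis) for the 9 complement genes and C4a, from all 6 libraries with SE (black), with 1 library left out in turn (grey crosses) and in the 4 females (open diamonds). C4b and C4a stay right of 0 in every fit, C3 lies on both sides, and the C1q genes lie within 0.34 of 0.

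Levels were compared between genes per kilobase of exon, as counts per kilobase in a library scaled to 1000000 counts, averaged over the 6 libraries. On this scale C1qa had 65.5 ± 12.5 (SD, n = 6) and C1qb 61.8 ± 9.57, which did not differ beyond their spread. C4b (31.9 ± 13.9) and C1qc (29.8 ± 4.37) followed, again within their spread. On this scale C1qc was above C4b in each WT library and below it in each Sgo1-/+ library, narrowly in Sgo1-/+ replicate 2 (23.8 and 24.0). With the longest transcript of C1qc in place of all its exons the C1qc level was 47.9, against 33.7 for C4b on the same kind of length, so the order of these neighbours depends on the length used. Cd59a had 10.4 ± 3.43, Itgam 5.84 ± 0.469 and Serping1 4.52 ± 2.43, and the ranges of neighbours overlapped. C3 (1.26 ± 0.941) and C3ar1 (1.20 ± 0.219) were lowest and did not differ beyond their spread. Cd59b stood at 2.02 and C4a at 0.388.

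**Figure D4:**
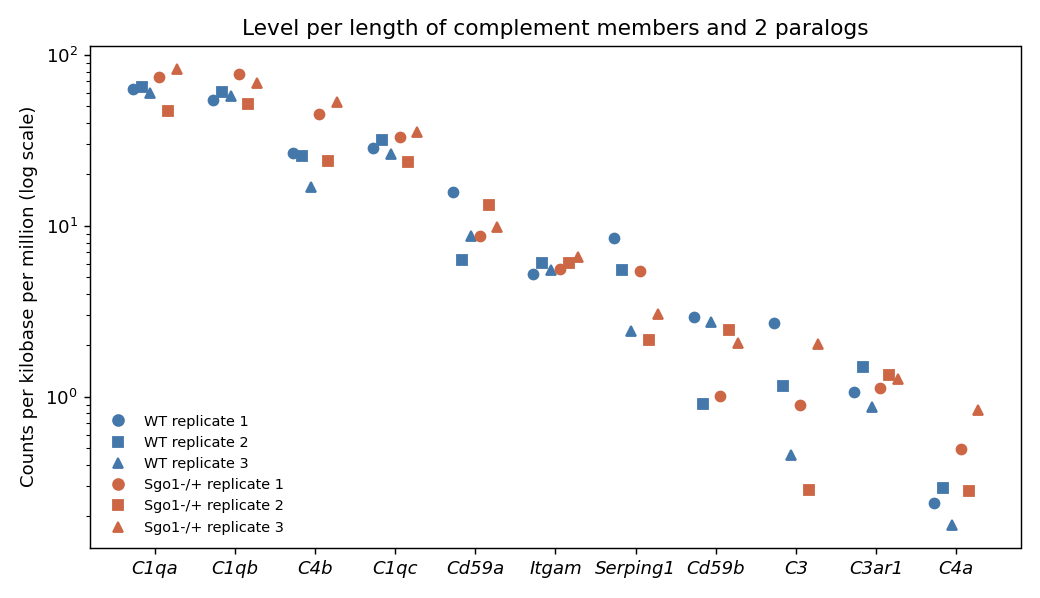
Counts per kilobase of exon in a library scaled to 1000000 counts (log scale) for the 9 complement genes and the paralogs C4a and Cd59b, ordered by the mean of 6 libraries. Blue points are WT and orange points Sgo1-/+, with a marker shape for each replicate. C1qa and C1qb are highest, and C3, C3ar1 and C4a lowest.

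Of 54 further complement genes, 53 were matched in the table (C1rb was not), and 34 passed the filter. Of the 34, 17 had a log2 fold change above 0 and 17 below, with a median of -0.003. The adjusted threshold was passed by 0, and 1, C4a, was higher at an unadjusted p under 0.05 (0.808% of all genes). Among genes of the classical and lectin start, 6 of 14 matched were tested. Colec12, a scavenger receptor of the collectin family, had 171 to 214 normalized counts in WT and 114 to 192 in Sgo1-/+ (log2 fold change -0.39 ± 0.233, SE). C1ra, a protease that C1q activates, had 28.5 to 73.1 in WT and 43.6 to 64.9 in Sgo1-/+. Of the alternative route, Cfp (properdin) and Cfb had log2 fold changes of -0.40 and -0.43, neither called.

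The filter on low counts was not passed by 5 of 7 terminal components, and C9 had 0 counts in every library. A count of 0 allows up to 3 counts in a library, so expression below that was not detectable at this depth. C8g (-0.62 ± 0.380, SE) and C8b (0.43 ± 0.392, SE) were tested and not called.

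Among soluble regulators, Clu, the abundant astrocyte product clusterin, had 7953, 8468 and 8064 normalized counts in WT and 10463, 8138 and 11417 in Sgo1-/+. Its 2 highest libraries were those of C4b, and the log2 fold change was 0.29 ± 0.157 (SE, unadjusted p = 0.103, edgeR). Vtn had 723 to 787 in WT and 624 to 836 in Sgo1-/+. Of 12 membrane regulators tested, 8 had a log2 fold change above 0 and 0 were called, led in level by Sez6l2, which had 3412 to 4630 in WT and 3756 to 5032 in Sgo1-/+. Csmd1 had 284 normalized counts in WT replicate 1 against 894 to 1123 in the other 5 libraries.

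Of 8 receptors tested, 5 had a log2 fold change above 0 and 0 were called. Lrp1, an endocytic receptor, was the most abundant with 5566 to 6705 in WT and 6178 to 6439 in Sgo1-/+. Itgb2, the partner of Itgam, had 127, 127 and 126 normalized counts in WT and 137, 95.0 and 134 in Sgo1-/+. Cd93 had 82.1 to 124 in WT and 384, 95.2 and 82.4 in Sgo1-/+. The high Cd93 value was in Sgo1-/+ replicate 1, where endothelial Pecam1 was 642 against 234 to 309 elsewhere. Of the other endothelial markers, Tek and Slc2a1 were also highest in that library. Cldn5 (437 there and 456 in WT replicate 3), Flt1, Kdr and Slco1a4 were not. Red cell markers (Hba-a1, Hba-a2 and Hbb-bs first) summed to 17050 in that library against 1393 to 6358 elsewhere. Vsig4 had 0 counts in every library.

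Markers of other cells that make or meet complement were also read. Perivascular macrophage markers (Mrc1, Cd163 and Lyve1 first) summed to 327 to 516 in WT and 302 to 449 in Sgo1-/+. Of 6 tested, 5 had a log2 fold change below 0 (8199 of 16337 genes tested), with a median of -0.58. At an unadjusted p under 0.05, 1 of 6, Cbr2, was lower, against 1.23% of all genes, and 0 passed the adjusted threshold. Cbr2 had 16.2 to 23.7 in WT and 2.05 to 7.95 in Sgo1-/+. Neutrophil and monocyte markers (S100a8, S100a9 and Ccr2 first) summed to 696 in WT replicate 2 and 44.5 to 126 in the other libraries. Endothelial markers (Cldn5, Pecam1 and Flt1 first) summed to 3726 to 4446 in WT and 3583 to 5150 in Sgo1-/+. Neuronal markers (Snap25, Rbfox3 and Syt1 first) summed to 66487 to 101683 in WT and 84243 to 92810 in Sgo1-/+. In WT replicate 1, Syt1 had 5380 against 18497 to 23343 elsewhere, and Slc17a7 had 2218 against 9455 to 11303. Rbfox3 and Gad1 were also lowest in that library, whereas Stmn2 and Nefl were highest there.

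The 4 females alone gave a larger C4b difference than all 6 libraries, and each of the 9 genes had a fold change above 0 there (50.9% of all genes). In females C4b had a log2 fold change of 1.20 (unadjusted p = 0.00124 and adjusted p = 0.9999, edgeR), and C1qa (0.34) and C1qb (0.30) were also at an unadjusted p under 0.05, so 3 of 9 were called against 2.08% of all genes called higher. For C1qa, C1qb, C1qc, C4b and Cd59a, both Sgo1-/+ females lay above both WT females and the Sgo1-/+ male below the WT male, a pattern shown by 9.62% of all genes. Only 1 male of each genotype was sequenced, and the WT male is WT replicate 1. In a fit with an interaction of sex and genotype, chosen after these values were seen, 4 of 9 (C1qa, C4b, C3 and Serping1) had an unadjusted p under 0.05 against 19.3% of all genes. None of the 9 passed the adjusted threshold, against 3.67% of all genes, with adjusted p-values of 0.0897 for C3, 0.114 for C4b, 0.123 for C1qa and 0.224 for Serping1 (edgeR).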

How the data were processed

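RNA of 6 mouse brain samples was read from 1 gene table. The authors aligned paired reads of 150 bases to mm10 with Strand NGS and deposited an estimated count per gene and library, without normalization; BWA and edgeR are named in the submitters' processing notes. 47.4 to 48.6% of the values were not whole and were rounded. Whether counting used the strand is not given in the sources used here. Further columns of the table hold the authors' normalized values, fold changes and related scores. They entered no result, but were looked at when library columns were assigned. Columns 1 to 3 of the numbered brain libraries were taken as WT and 4 to 6 as Sgo1-/+, in the replicate order of their numbers. The annotation held 36308 of 38087 gene IDs.

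The rounded counts went into edgeR 4.0.16 (its quasi-likelihood test, with TMM factors of 0.969 to 1.081, default filter, no covariates, Benjamini-Hochberg over 16337 genes), after tests on simulated data. SE is the log2 fold change divided by the square root of F. Normalized counts are estimated counts over the TMM-scaled library size, times its mean. For single values, two-sided exact permutation tests were run (scipy 1.17.1). Alternatives used DESeq2 1.42.0, limma 3.58.1 with a pseudocount of 1, other scaling, filters of 0 or 10 counts, sex, the replicate block and each library left out. Members, lists and rules were chosen with earlier results of these data known. Named genes are the members, Sgo1, paralogs, the most abundant and called genes of each complement list, first markers and the 5 genes most like C1q, C3 and C4b. Some genes of the lists are not reported here. The labels name 1 library per animal. A count of 0 allows 3 counts, for counting error only.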

Additional observations from a re-analysis of the deposited data

Results flagged for a closer look

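The log2 ratio of Sgo1-/+ to WT mean normalized counts was above 0 in females and below 0 in males for C1qa, C1qb, C1qc, C4b, Cd59a, C3 (0.87 and -3.24) and Serping1 (0.10 and -1.97). For the first 5 of these, both Sgo1-/+ females lay above both WT females and the Sgo1-/+ male below the WT male. For C4b the ratio was 1.20 in females and -0.14 in males, 1.34 higher in females. For C1qa it was 0.33 and -0.44, a difference of 0.77. For C1qc it was 0.24 and -0.27, a difference of 0.51. For C1qb it was 0.30 and -0.08, a difference of 0.38, and for Cd59a it was 0.31 and -0.25, a difference of 0.56.

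An edgeR interaction of sex and genotype, added after these values were seen, gave adjusted p-values of 0.114 for C4b, 0.123 for C1qa, 0.327 for C1qc, 0.405 for C1qb, 0.464 for Cd59a, 0.0897 for C3 and 0.224 for Serping1, none of them past the threshold. With 1 male per genotype, the spread in this fit comes from the females alone. The WT male is the library that stood apart with cerebellar and brain stem markers, so sex and that library cannot be told apart among WT animals.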

How the results depend on the processing

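0 of the 9 complement genes and 0 of the further complement genes passed the adjusted threshold under any of the 16 alternatives. Over all genes the adjusted count was 3 with DESeq2, 2 with edgeR's likelihood ratio test, 1 in females only and 0 to 1 with 1 library left out, against 0. At an unadjusted p under 0.05, 333 genes became 563 without the filter on low counts (more genes tested), 578 in females only and 240 (without Sgo1-/+ replicate 2) to 1040 (without WT replicate 3) with 1 library left out. The count of 1 among the 9 (C4b) became 0 with library size alone or sex as a covariate, 3 in females only, and 0 to 3 with 1 library left out. The count of 1 among further complement genes (C4a) became 0 with limma, 2 without the filter or in females only, and 0 to 2 with 1 library left out. The gene called was not always C4a. It was C1s1 without WT replicate 2, Csmd2 without WT replicate 3 and Colec12 without Sgo1-/+ replicate 1.

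Signs turned for C3 in females only (0.87), without WT replicate 1 (0.42) and without Sgo1-/+ replicate 2 (0.03), with a leave-one-out range of -1.26 to 0.42, and for Serping1 in females only (0.10). Cd59a turned with library size alone (-0.022) and without WT replicate 2 (-0.20), WT replicate 3 (-0.05) or Sgo1-/+ replicate 2 (-0.14), within -0.20 to 0.50. C1qa (-0.050 to 0.32), C1qc (-0.023 to 0.24) and C3ar1 (-0.037 to 0.36) each turned without 1 library, and the share of C1qa among the chains differed by -2.75 to 0.317 percentage points. The cause of these moves was not tested. The difference in the C1q share of microglial counts ranged from -5.64 to -0.021 percentage points with 1 library left out, lying nearest to 0 without Sgo1-/+ replicate 2 (exact permutation p = 1.0), so most of it rests on that library.

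The replicate numbers of the 2 groups gave no sign of pairing the animals. Over the genes tested, deviations of same-numbered libraries from their group means on the log2 scale correlated at -0.146, 0.014 and -0.207. With a replicate block, 280 genes, 0 of the 9 (C4b at an unadjusted p of 0.0825, edgeR) and 0 further complement genes were at an unadjusted p under 0.05, and 0 passed adjustment. With 3 animals a group and a biological coefficient of variation of 25.9% (17.6% without WT replicate 1), small differences were not detectable, and genes near 3 counts have no order.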

Other observations

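The genes whose pattern over the 6 libraries was most like that of summed C1q were Taf3, F11r, Abtb1, Ap4m1 and Ctsz, with a root mean square log2 difference of 0.0763 for Taf3 against a spread of 0.21 for summed C1q. Ctsz, a lysosomal protease of macrophages and microglia, had 681, 636 and 563 normalized counts in WT and 775, 516 and 850 in Sgo1-/+ (replicates 1, 2 and 3 in order). Sgo1-/+ replicate 2 was lowest and the other Sgo1-/+ libraries highest, as for C1q. None of the microglia markers listed for the cell types was among these 5 genes.

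Masp2, a protease of the lectin route that did not pass the filter, had 0 to 1.04 normalized counts in WT and 3.06 to 9.13 in Sgo1-/+, without overlap. With no filter on low counts it was at an unadjusted p under 0.05 and not past the adjusted threshold. WT values were under the 3 counts that a count of 0 allows, and no fold is given.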
